A study of Sus scrofa with 12 samples.

Results

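Leukocyte adhesion molecules and chemokines were followed in porcine arterial endothelial cells (ECs) cultured under aneurysmal low, physiological and aneurysmal supra-high wall shear stress. The genes considered were VCAM1, ICAM1, ICAM2, SELE, SELP, CCL2, CXCL8, CXCL2, CX3CL1 and ACKR3, each found by the pig Ensembl identifier that carries its symbol. Of these 10 genes, 7 had a row in the table of 21153 genes, and ICAM2, SELE and CX3CL1 were not analysed here. The RNA of 12 cultures was sequenced, from primary ECs of 3 pigs exposed for 48 h to laminar flow, and each pig provided 2 cultures at 30 dyne/cm2 and 1 at each of 2 and 80 dyne/cm2. The cultures at 2 dyne/cm2 (aneurysmal low) were compared with the first of the control sets numbered in the labels, called set 1 here, and those at 80 dyne/cm2 (aneurysmal supra-high) with the other, called set 2. Both control sets were at 30 dyne/cm2 (physiological) and each group had n = 3 donors. The labels give no age or sex, state no cytokine or drug added to any culture, and do not say which control set belongs to which comparison. They name the aorta as the source of the cells, whereas the methods name the coronary artery, and the chamber and seeding density given for 80 dyne/cm2 also differ between labels and methods.

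Leukocytes leave the blood in steps. Selectins such as P-selectin catch rolling cells, chemokines presented on the endothelium activate their integrins, and ICAM1 and VCAM1 then hold the arrested cells. In ECs many of these genes are induced by inflammatory cytokines through NF-kappaB, and arterial regions of disturbed or low flow are known for their expression, whereas P-selectin protein is also kept ready in Weibel-Palade bodies, the storage granules of ECs.

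The libraries held 29606854 to 41058902 counted reads, with a median of 33871914. Levels are given as CPM, the counts scaled to a common library size by TMM, and differences as log2 fold changes with their standard errors (SE) from edgeR's quasi-likelihood test with the donor as a term. A gene was called when it changed at least 2-fold with an adjusted p under 0.05 over all genes tested. Libraries were matched by replicate number, and numbers 1, 2 and 3 are called donors 1, 2 and 3. The cells carried endothelial markers, with 48225 to 145589 counts of PECAM1 and 45324 to 80908 of CDH5 (VE-cadherin) per library. Of 16 leukocyte markers, 8 had at most 3 counts in every library, including PTPRC (CD45, 0 to 2 counts), and LAPTM5 had 18412 to 27005. Of 12 smooth muscle and fibroblast markers, DES was at 0, ACTA2 at 0 to 17 and MYH11 at 9 to 26 counts, while SMTN had 1401 to 3209, COL1A1 21 to 1915 and COL1A2 38 to 7342 counts. The summed CPM of 7 endothelial markers was 4509 to 5432 under low flow, 6412 to 7317 in set 1, 5914 to 6994 in set 2 and 7589 to 7911 under supra-high flow. In such bulk RNA, fewer cells of a type and less RNA per cell cannot be told apart.

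At 2 dyne/cm2, 2 of the 7 genes changed against set 1, and both fell. They were SELP, which fell 10.7-fold, and ICAM1, which fell 2.02-fold. VCAM1, the chemokines CCL2, CXCL8 and CXCL2 and the scavenging receptor ACKR3 did not pass the test. Over all 11226 genes tested, 1078 (9.6%) were called in either direction and 510 (4.54%) were called lower. The 7 genes had a median log2 fold change of -0.28, against 0.0025 over all genes tested.

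SELP encodes P-selectin, the rolling receptor that binds PSGL-1 on leukocytes. The gene lies at chr4:81376804-81401240 (Sscrofa11.1). Its level at 2 dyne/cm2 was 187, 81.9 and 34.9 CPM in donors 1, 2 and 3. In set 1 it was 906, 766 and 984 CPM in the same order. Every culture at 2 dyne/cm2 was below every culture of set 1, and the group means were 101 ± 77.9 CPM against 885 ± 110 CPM (SD, n = 3). The log2 fold change was -3.41 (SE 0.53, adjusted p = 0.0152), with ratios within donors of -2.28, -3.23 and -4.82 on the log2 scale. The size of the decrease thus differed between donors while its direction did not. Without donor 2 the log2 fold change was -3.53 and the adjusted p 0.0531, so the call was lost. Against set 2, with 623, 453 and 590 CPM, the 3 donors also had lower levels at 2 dyne/cm2, with log2 ratios of -1.74, -2.47 and -4.08. Groups that did not overlap were found for 2 of the 7 genes and for 37.9% of all genes tested.

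ICAM1 encodes the ligand of the leukocyte integrins LFA-1 and Mac-1 and lies at chr2:69097136-69107722. At 2 dyne/cm2 its level was 319, 406 and 262 CPM in donors 1, 2 and 3. In set 1 it was 506, 968 and 579 CPM. The groups did not overlap, and their means were 329 ± 72.2 CPM and 684 ± 248 CPM (SD, n = 3). The log2 fold change of -1.02 (SE 0.15, adjusted p = 0.0125) lay just past the 2-fold threshold. It was -0.90 without donor 2, -0.95 without donor 3 and -0.90 against set 2, each of them under 2-fold with an adjusted p under 0.05. Without the donor as a block, the log2 fold change was -1.05 with an adjusted p of 0.0678. ICAM1 and SELP were lower in all 3 donors, as were 33.5% of all genes tested.

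**Figure D1:**
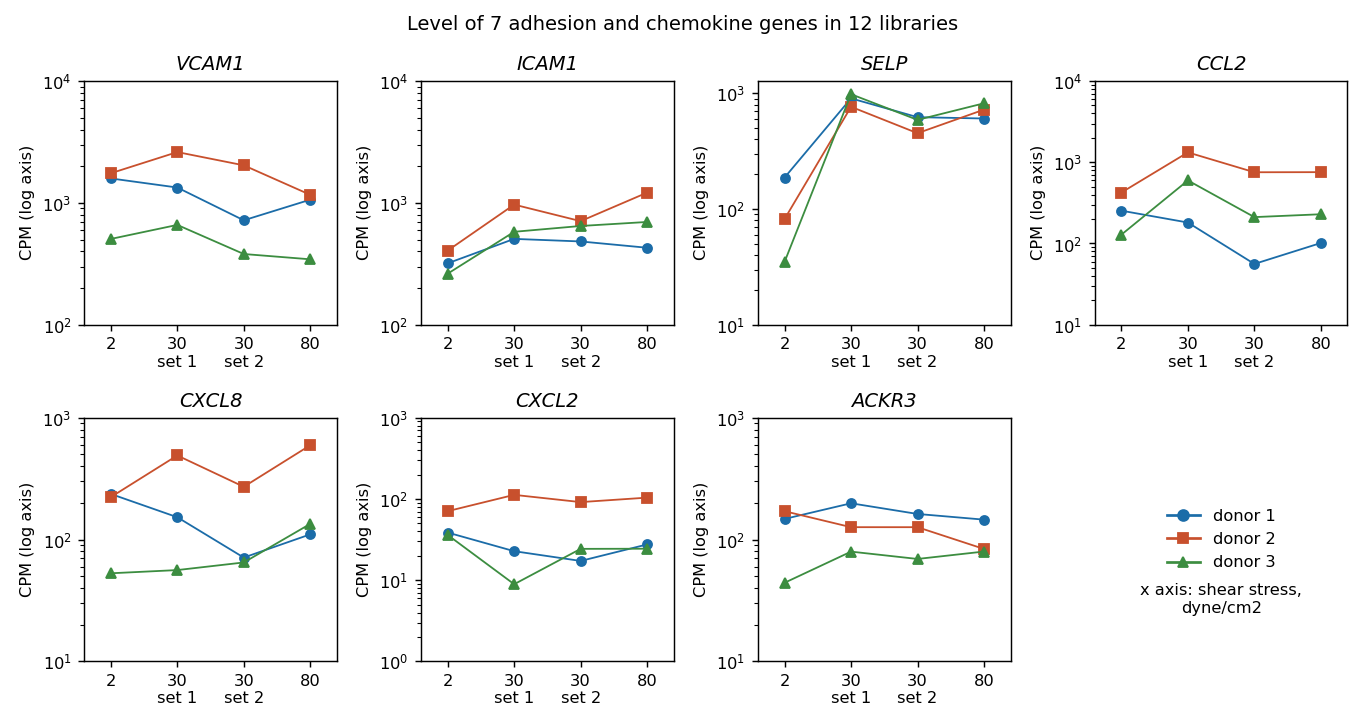
Level of each gene in the 12 libraries, in CPM on a log axis, by shear stress (x axis, dyne/cm2, with both control sets at 30 dyne/cm2). Each line joins the 4 cultures of 1 donor, and the 3 SELP values at 2 dyne/cm2 (34.9 to 187 CPM) lie below all 9 others (453 to 984 CPM).

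VCAM1, the endothelial ligand of the integrin VLA-4 on monocytes and lymphocytes, lies at chr4:117496914-117511211. Its level was 1587, 1750 and 506 CPM at 2 dyne/cm2 and 1336, 2612 and 659 CPM in set 1. Donor 1 was higher and donors 2 and 3 were lower at 2 dyne/cm2, and the ranges overlapped. The log2 fold change was -0.23 (SE 0.19, adjusted p = 0.390), and it was 0.44 against set 2, so that no direction could be given.

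The chemokines varied more between donors than between flow conditions. CCL2 (chr12:40798109-40800013), which attracts monocytes through CCR2, was at 253, 424 and 129 CPM at 2 dyne/cm2 and at 181, 1323 and 597 CPM in set 1. Donor 1 was higher and donors 2 and 3 were lower at low flow. The log2 fold change of CCL2 was -1.16 (SE 0.56, adjusted p = 0.180). Without donor 1 it was -1.93 with an adjusted p of 0.00445 and would have been called, and against set 2 it was 0.13.

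CXCL8 (chr8:69932646-69935861) and CXCL2 (chr8:70157253-70159145) both attract neutrophils. CXCL8 was at 237, 223 and 52.9 CPM at 2 dyne/cm2 and at 153, 490 and 56.2 CPM in set 1, with a log2 fold change of -0.19 (SE 0.34, adjusted p = 0.694). CXCL2 was at 38.6, 70.8 and 36.0 CPM at 2 dyne/cm2 and at 22.8, 112 and 8.92 CPM in set 1, with a log2 fold change of 0.68 (SE 0.51, adjusted p = 0.358). For both genes the donors did not move in a common direction. CXCL8 was higher at 2 dyne/cm2 in donor 1 only, and CXCL2 in donors 1 and 3.

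ACKR3 (chr15:136370457-136382559) encodes an atypical receptor that binds and removes CXCL12 without activating G proteins. It was at 148, 171 and 44.2 CPM at 2 dyne/cm2 and at 199, 126 and 79.6 CPM in set 1. The log2 fold change was -0.28 (SE 0.26, adjusted p = 0.448), with donor 2 opposite to the others.

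Under supra-high flow, none of the 7 genes passed both thresholds against set 2. CXCL8 came closest, with 1.94-fold higher levels and an adjusted p under 0.05. Of all 11187 genes tested, 246 (2.2%) were called, and 940 (8.4%) had an adjusted p under 0.05 whatever the fold. At an unadjusted p under 0.05 there were 2921 genes. The median log2 fold change of the 7 genes was 0.30, against -0.0058 over all genes tested.

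CXCL8 was at 110, 595 and 135 CPM at 80 dyne/cm2 in donors 1, 2 and 3. In set 2 it was at 71.2, 271 and 64.9 CPM. Each donor was higher at 80 dyne/cm2 than in its own control, while the ranges of the groups overlapped because the donors differed. The log2 fold change was 0.95 (SE 0.12, adjusted p = 0.00639), and the ratios within donors were 0.63, 1.13 and 1.05. The value depended on the donor term and on the control set. Without the block the log2 fold change was 1.06 with an adjusted p of 0.784, and against set 1 it was 0.36 with an adjusted p of 0.643. Without donor 1 it was 1.10 and passed both thresholds, and without donor 3 the adjusted p was 0.0788.

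The other chemokines were higher in each donor by varying amounts. CCL2 was at 101, 755 and 229 CPM at 80 dyne/cm2 and at 56.0, 753 and 211 CPM in set 2, with a log2 fold change of 0.33 (SE 0.16, adjusted p = 0.246). CXCL2 was at 27.6, 104 and 24.4 CPM and at 17.3, 91.5 and 24.3 CPM in set 2, with a log2 fold change of 0.30 (SE 0.13, adjusted p = 0.200). CCL2, CXCL8 and CXCL2 were thus higher in all 3 donors, which was also the case for 23.2% of all genes tested. The log2 ratios within donors were 0.86, 0.0040 and 0.12 for CCL2 and 0.68, 0.18 and 0.0060 for CXCL2, so that donor 1 gave most of both. Against set 1 the log2 fold change of CCL2 was -1.0, the opposite sign.

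None of the adhesion molecules passed the test under supra-high flow. SELP was at 607, 724 and 821 CPM and at 623, 453 and 590 CPM in set 2, with a log2 fold change of 0.38 (SE 0.15, adjusted p = 0.155). It was higher in donors 2 and 3, and against set 1 the log2 fold change was -0.30. ICAM1 was at 428, 1214 and 697 CPM and at 482, 708 and 646 CPM in set 2, with a log2 fold change of 0.25 (SE 0.18, adjusted p = 0.413). VCAM1 was at 1062, 1165 and 344 CPM and at 719, 2033 and 380 CPM in set 2, with a log2 fold change of -0.12 (SE 0.23, adjusted p = 0.785). Donors went both ways for ICAM1 and VCAM1. ACKR3 was at 146, 83.8 and 79.8 CPM and at 162, 126 and 69.3 CPM in set 2, with a log2 fold change of -0.17 (SE 0.14, adjusted p = 0.486). The groups overlapped for all 7 genes, and did not for 14.9% of all genes tested.

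**Figure D2:**
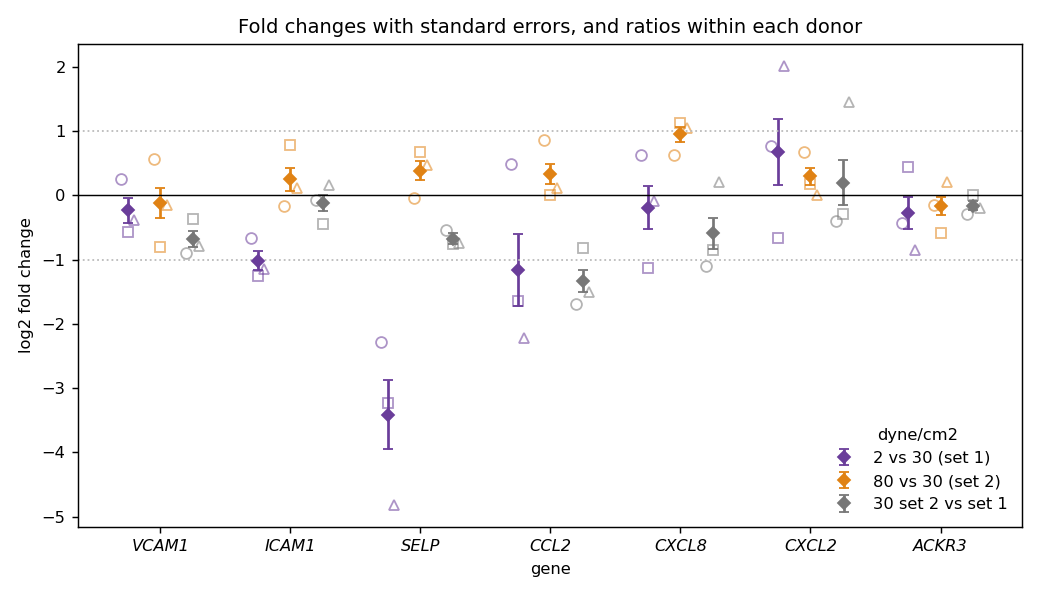
Log2 fold change of each gene in 3 comparisons (filled diamonds, with bars of 1 SE from edgeR), with the log2 ratio of CPM within donors 1 (circles), 2 (squares) and 3 (triangles) as open symbols. Dotted lines mark 2-fold. SELP at 2 dyne/cm2 stands at -3.41, and CXCL8 at 80 dyne/cm2 at 0.95 with its 3 donors between 0.63 and 1.13.

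Whether the responses to low and supra-high flow differed was tested in 1 model over the 12 libraries. Of the 7 genes, SELP and ICAM1 differed between the responses, as did 37.1% of all 11568 genes tested. The response of SELP at 2 dyne/cm2 minus that at 80 dyne/cm2 was -3.65 on the log2 scale (SE 0.62, adjusted p = 0.00197). For ICAM1 it was -1.26 (SE 0.29, adjusted p = 0.00853). In each donor both genes had a lower ratio at 2 dyne/cm2 than at 80 dyne/cm2. The call for ICAM1 was lost without donor 2 (-0.87, adjusted p = 0.0856), without donor 3 (-1.28, adjusted p = 0.0678) and without the donor as a block (-1.41, adjusted p = 0.0994). The differences of CCL2 (-1.14, SE 0.73, adjusted p = 0.246) and CXCL8 (-1.07, SE 0.64, adjusted p = 0.216) did not pass, and both passed without donor 1 (-2.01, adjusted p = 0.00381, and -1.76, adjusted p = 0.0175). CXCL2 (0.37, adjusted p = 0.629), VCAM1 (-0.08, adjusted p = 0.872) and ACKR3 (-0.07, adjusted p = 0.895) did not pass either.

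Between the 2 control sets, both at 30 dyne/cm2, no gene of the 7 passed both thresholds, and 1 gene of all 11163 tested did (0.00896%). VCAM1, SELP, CCL2 and ACKR3 had lower values in set 2 than in set 1 in all 3 donors, which was the case for 22.2% of all genes tested, and for ACKR3 donor 2 had 126 CPM in both sets. CCL2 had the lowest fitted value, with a log2 fold change of -1.33 (SE 0.17, adjusted p = 0.0741), from 181, 1323 and 597 CPM in set 1 to 56.0, 753 and 211 CPM in set 2. SELP had -0.67 (SE 0.08, adjusted p = 0.0681), and its sets did not overlap, which held for 10.3% of all genes tested. VCAM1 had -0.68 (SE 0.12, adjusted p = 0.107). The count of all genes at an unadjusted p under 0.05 was 2146, and DESeq2 called 66 genes, CCL2 among them. ICAM1 (-0.12), ACKR3 (-0.16), CXCL8 (-0.59) and CXCL2 (0.20) had adjusted p values from 0.264 to 0.784 between the sets. Set 1 is shared by this comparison and that of 2 dyne/cm2, and set 2 by this comparison and that of 80 dyne/cm2, so that a low value in a set enters both.

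Ordered by mean level, SELP was highest in set 1 (885 ± 110 CPM), followed by 80 dyne/cm2 (717 ± 108 CPM), set 2 (555 ± 90.3 CPM) and 2 dyne/cm2 (101 ± 77.9 CPM), and each step was larger than the SD of both neighbours. ICAM1 was highest at 80 dyne/cm2 (780 ± 399 CPM), followed by set 1 (684 ± 248 CPM), set 2 (612 ± 117 CPM) and 2 dyne/cm2 (329 ± 72.2 CPM). Of its steps, that from set 2 to 2 dyne/cm2 exceeded both SDs. For the other 5 genes no step between neighbours did. VCAM1, for instance, had 1536 ± 991 CPM in set 1 and 857 ± 447 CPM at 80 dyne/cm2, the ends of its order.

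The donor was a larger source of variation than the flow for 5 of the 7 genes. It took 80.4% of the sum of squares of log2 CPM over the 12 libraries for VCAM1, 77.5% for CXCL2, 75.2% for ACKR3, 73.2% for CXCL8 and 66.8% for CCL2. The condition took 12.8%, 6.14%, 4.47%, 8.93% and 15.8% of it for the same genes, which includes any difference between the control sets. SELP and ICAM1 had the reverse pattern, with 87.5% and 54.98% for the condition and 2.13% and 33.1% for the donor. Over 11568 genes the medians were 31.0% for the donor and 41.8% for the condition.

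Donor 2 had the highest VCAM1, ICAM1, CCL2 and CXCL2 in 4 of 4 conditions, and donor 3 the lowest VCAM1 and ACKR3 in 4 of 4. The geometric mean of CCL2 over the 4 conditions was 752 CPM in donor 2 and 127 CPM in donor 1, a 5.92-fold difference. That of VCAM1 was 1814 CPM in donor 2 and 457 CPM in donor 3. With 1 animal behind each donor these differences have no replicate of their own.

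**Figure D3:**
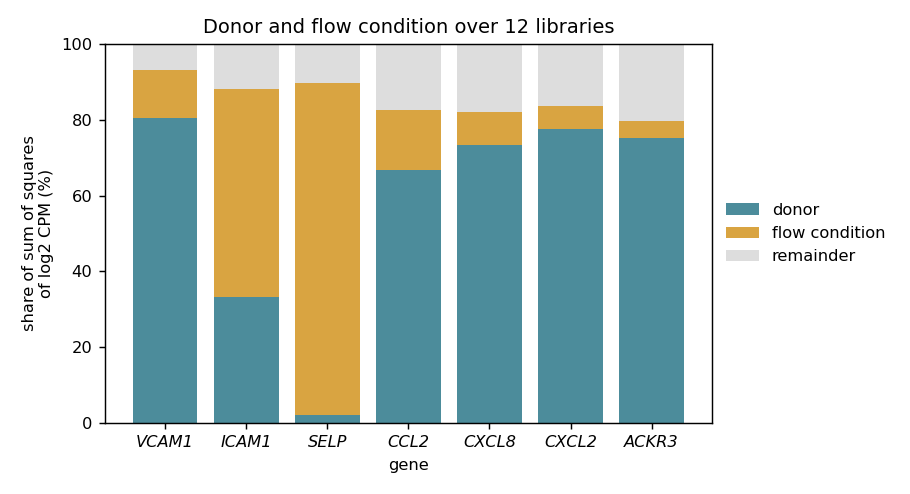
Share (%) of the sum of squares of log2 CPM over 12 libraries that goes with the donor, the flow condition and the remainder, 1 bar per gene. Both control sets are counted as separate conditions. The condition takes 87.5% for SELP and 54.98% for ICAM1, and the donor 66.8% to 80.4% for the other 5 genes.

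Genes whose levels followed these most closely were sought among 10138 genes with a symbol, by Pearson's r of log2 CPM centred within donor over the 12 libraries. The libraries share donors and flow runs, so r is a description. The pattern of SELP was most like those of LYST (r = 0.99), SLC66A3 (0.99) and GSTO1 (0.99), and that of ICAM1 most like those of ICAM4 (0.98), STK38L (0.98) and EIF2AK3 (0.98). VCAM1 was closest to TOMM70 (0.94), IPO11 (0.91) and NUP50 (0.91), and CCL2 to RBMS1 (0.91), PLA2G4A (0.89) and PPP1R3C (0.87). CXCL8 was closest to FAS (0.93), GSTM3 (0.90) and ZCRB1 (0.90). CXCL2 was closest to CDK6 (0.90), FBXO48 (0.88) and RELB (0.86), and ACKR3 to CWC22 (0.90), UTP15 (0.87) and TRNAU1AP (0.86). Within the 7 genes, SELP and ICAM1 had r = 0.94, a value that includes the differences between conditions. After removal of condition means instead, which keeps differences between donors, their r was 0.10. By that measure ICAM1 and CCL2 had 0.87, and CXCL8 and CXCL2 had 0.90.

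Several genes next to these on the chromosome were also measured. ICAM4, which lies 888 bp from ICAM1, fell by 1.83 on the log2 scale at 2 dyne/cm2 (SE 0.32, adjusted p = 0.0194). F5, the coagulation factor V gene 2033 bp from SELP, fell by 1.38 (adjusted p = 0.00924). CCL8, which encodes a monocyte chemoattractant and lies 56139 bp from CCL2, rose by 3.45 (SE 0.74, adjusted p = 0.0300). MTHFD2L, which encodes a mitochondrial folate enzyme 20556 bp from CXCL2, rose by 1.26 (adjusted p = 0.0206). Whether reads were counted by strand is not given in the sources used here, so reads of overlapping transcripts could not be told apart.

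Of 29 other chemokines listed, 19 had a row and 6 were tested at 2 dyne/cm2, where 3 rose, none fell and 3 did not pass the test. CXCL14 went from 4.59, 2.68 and 0.269 CPM in set 1 to 39.7, 20.8 and 3.22 CPM at 2 dyne/cm2, a log2 fold change of 3.13 (SE 0.15, adjusted p = 0.00293). CCL8 went from 0.0737, 1.97 and 0.0299 CPM to 5.45, 9.75 and 0.268 CPM. CXCL12, the ligand of CXCR4 and ACKR3, went from 0.565, 1.22 and 0.210 CPM to 1.18, 4.42 and 0.705 CPM, a log2 fold change of 1.56 (SE 0.27, adjusted p = 0.0197). All 3 were higher in every donor and all were present at low counts, down to 1 read for CCL8 in set 1. None of the 3 reached 1 CPM in 3 libraries of set 1. Each thus entered the test at 2 dyne/cm2 only through its higher libraries there, as did CXCL12 at 80 dyne/cm2 against set 2. The filter favoured genes that rose, and the numbers of other chemokines that rose or fell partly follow from it. Of 4 tested at 80 dyne/cm2, CXCL12 rose (1.73, SE 0.23, adjusted p = 0.00792) and CXCL14 fell (-1.93, SE 0.46, adjusted p = 0.0454). For CXCL12 the difference between the responses was -0.06 (SE 0.50, adjusted p = 0.934), and for CXCL14 it was 4.98 (SE 0.69, adjusted p = 7.18e-04). The call of CXCL14 at 80 dyne/cm2 was lost without donor 3, with set 1 or both sets as control, with relative log expression scaling, in the fit of all 12 libraries and without the block, and 1 of its libraries at 80 dyne/cm2 had no read. Without the block CXCL12 was called in neither comparison and CCL8 and CXCL14 were not called at 2 dyne/cm2. CCL8 also lost its call without donor 3 and against set 2, and CXCL12 against the other control set in either comparison.

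Among 4 chemokine receptors and scavengers tested at 2 dyne/cm2, ACKR2, which removes inflammatory CC chemokines, fell (-2.13, SE 0.30, adjusted p = 0.0119). CXCR4 had a log2 fold change of -0.77 (adjusted p = 0.0960). Of all genes tested at 2 dyne/cm2, 4.54% were called lower. Of 17 other adhesion and transmigration molecules, 3 fell and none rose. These were ICAM4, its neighbour ICAM5 (-1.92, SE 0.18, adjusted p = 0.00613) and the heparan sulphate proteoglycan SDC1 (-1.53, SE 0.13, adjusted p = 0.00537). ICAM4 lost its call without donor 3. For the whole list the median was -0.50. PECAM1, through which leukocytes pass between ECs, had -0.71 (adjusted p = 0.0346), under 2-fold. None of these 21 genes was called under supra-high flow.

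The integrin subunit ITGB2, a part of the leukocyte receptors of ICAM1, fell at 2 dyne/cm2 (-1.52, SE 0.24, adjusted p = 0.0150). Its level was 1.504 ± 0.380 CPM in set 1 and 0.514 ± 0.0933 CPM at 2 dyne/cm2 (SD, n = 3), 13 to 65 counts per library. PTPRC had 0 counts in these 6 libraries. Among leukocyte markers CD68 fell (-1.17, SE 0.15, adjusted p = 0.00961), and the summed CPM of the 16 markers was 623 to 763 at 2 dyne/cm2 and 586 to 691 in set 1, most of it from LAPTM5.

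Receptors of inflammatory cytokines changed in both directions at 2 dyne/cm2, with 2 of 14 higher and 2 lower. CD40 fell (-2.28, SE 0.10, adjusted p = 0.00290), as did the interleukin-1 co-receptor IL1RAP (-1.35, SE 0.22, adjusted p = 0.0171), while TNFRSF11A, the RANK receptor, rose (2.04, SE 0.24, adjusted p = 0.00849), as did IL6ST, the gp130 subunit (1.29, SE 0.26, adjusted p = 0.0262). Without the block TNFRSF11A, IL1RAP and IL6ST were not called, and IL1RAP also lost its call without donor 2 and against set 2, and IL6ST without donor 1 and without donor 3. TNFRSF1A had -0.58 (adjusted p = 0.0203), under 2-fold. Of 23 NF-kappaB factors and inhibitors, TRAF1 rose (1.62, SE 0.23, adjusted p = 0.0125) and NFKBIZ fell (-1.29, SE 0.32, adjusted p = 0.0430). The call of NFKBIZ was lost without donor 2, without donor 3, with either other control and without the block. RELA (-0.09, adjusted p = 0.463), NFKB1 (-0.05, adjusted p = 0.757) and NFKBIA (-0.50, adjusted p = 0.0615) did not pass. The median of the list was -0.03, and 9.6% of all genes tested were called at 2 dyne/cm2. None of the 37 genes was called at 80 dyne/cm2.

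**Figure D4:**
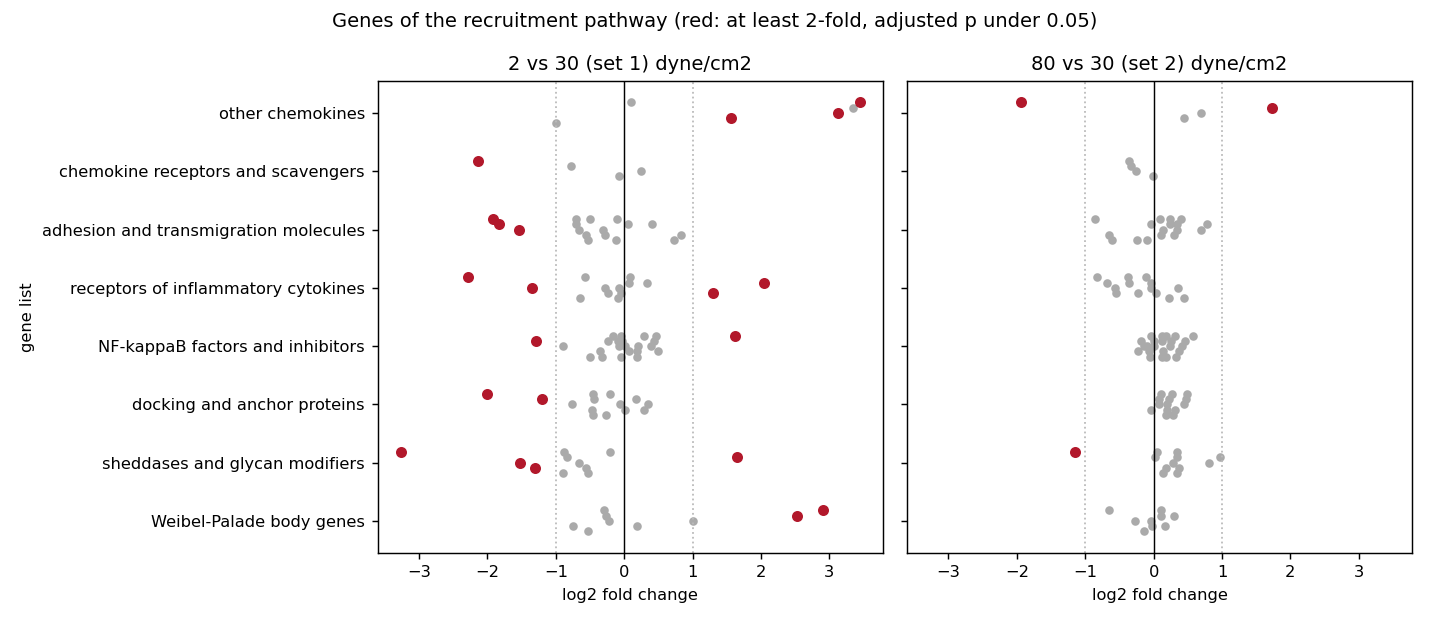
Log2 fold changes of the genes tested in 8 lists of the recruitment pathway, at 2 dyne/cm2 against set 1 (left) and 80 dyne/cm2 against set 2 (right), 1 dot per gene, with dotted lines at 2-fold and called genes in red. ADAM15 (-3.27) and CCL8 (3.45) mark the ends on the left, and 3 genes are called on the right.

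Proteins that dock ICAM1 and VCAM1 to the cytoskeleton or gather them in the membrane were tested in a list of 14. CD9, a tetraspanin of these platforms, fell at 2 dyne/cm2 (-2.0, SE 0.12, adjusted p = 0.00331), as did EZR, which encodes ezrin (-1.20, SE 0.15, adjusted p = 0.00950). None rose, the median was -0.36, and 4.54% of all genes tested at 2 dyne/cm2 were called lower. EZR had -0.98 against set 2, under 2-fold. Under supra-high flow none was called, and 13 of the 14 had log2 fold changes above 0 (median 0.21, against -0.0058 over all genes tested). Between the control sets, 10 of the 14 had lower values in set 2 than in set 1 (median -0.080), and set 2 is the control at 80 dyne/cm2.

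Of 11 sheddases, their inhibitors and glycan-modifying enzymes tested at 2 dyne/cm2, 3 fell and 1 rose. Over all genes tested there, 9.6% were called in either direction and 4.54% were called lower. The metalloproteinase ADAM15 fell (-3.27, SE 0.31, adjusted p = 0.00623), as did TIMP3 (-1.52, SE 0.34, adjusted p = 0.0330) and ADAM8 (-1.30, SE 0.29, adjusted p = 0.0329). TIMP3 and ADAM8 lost their calls without donor 1, without donor 3, against set 2 and without the block. GCNT1, which builds the branched O-glycans on which selectin ligands are carried, rose (1.65, SE 0.23, adjusted p = 0.0119). GCNT1 was also called at 80 dyne/cm2, where it fell (-1.15, SE 0.10, adjusted p = 0.00291). Its levels were 69.5, 44.3 and 72.6 CPM at 2 dyne/cm2, 22.0, 21.3 and 15.7 CPM in set 1, 38.6, 26.6 and 29.7 CPM in set 2 and 16.2, 11.4 and 14.8 CPM at 80 dyne/cm2. Against the other control set, GCNT1 had 0.96 at 2 dyne/cm2 and -0.46 at 80 dyne/cm2, and neither was called.

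Weibel-Palade bodies hold P-selectin together with other cargo, and 9 of their genes were tested. EDN1, which encodes endothelin-1, rose at 2 dyne/cm2 (2.90, SE 0.49, adjusted p = 0.0182), from 90.4, 202 and 47.3 CPM in set 1 to 704, 634 and 804 CPM. ANGPT2 rose as well (2.52, SE 0.47, adjusted p = 0.0214), and its call was lost without donor 2 and without the block. None of the 9 fell while SELP did, and the median of the list was -0.22. Of all genes tested at 2 dyne/cm2, 9.6% were called in either direction. None of the 9 was called at 80 dyne/cm2. TEK, the receptor of ANGPT2 and 1 of the 7 endothelial markers, fell at 2 dyne/cm2 (-2.95, SE 0.24, adjusted p = 0.00479). The decrease in the endothelial marker sum from set 1 to 2 dyne/cm2 moved with those of SELP and ICAM1, and its part in them was not tested. Of the 7 markers TEK alone was called, and the median log2 fold change was -0.22. In all, 6 had values below 0, among them KDR (-1.27, adjusted p = 0.0609), PECAM1 (-0.71, adjusted p = 0.0346) and CDH5 (-0.11, adjusted p = 0.521). ROBO4 was higher (0.50, adjusted p = 0.0251). GP9, a platelet gene and the only 1 tested of the platelet and erythroid markers, rose (1.82, SE 0.20, adjusted p = 0.00758). Of the erythroid genes, HBB had 0 counts in every library and ALAS2 had 4 to 16. The source of the GP9 reads was not tested. The fibroblast and mural cell markers PDGFRB (2.41, SE 0.26, adjusted p = 0.00758) and PDGFRA (1.09, SE 0.23, adjusted p = 0.0300) rose too, both without a call once the block was left out and PDGFRA also without donor 1, without donor 3 and against set 2. The summed CPM of the 12 smooth muscle and fibroblast markers was 88.4 to 275 at 2 dyne/cm2 and 81.8 to 170 in set 1. Between the 2 control sets no tested gene of any list was called, and CCL8 and CXCL12 were not tested there.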

How the data were processed

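The authors deposited raw read counts per gene for 12 libraries, without normalization. They mapped 100-base single-end reads to Sscrofa11.1 with STAR 2.4, dropped reads with several locations, and counted with featureCounts 1.4.6. Identifiers were matched to symbols for 14572 of 21153 genes, and positions are those of RefSeq on the same assembly. Tests used the quasi-likelihood method of edgeR 4.0.16 under R 4.3.3, with TMM scaling and Benjamini-Hochberg adjustment. A gene was tested when 3 or more of the 6 libraries compared reached 1 CPM (of all 12 for the difference of the responses). The donor was a term, since the methods compare cells of the same donor and passage. After removal of condition means, libraries with the same number correlated at 0.672 to 0.876 (18 pairs) and other pairs at -0.552 to -0.189 (36 pairs). With the donor as a term, p-values rest on within-donor differences over 3 donors, and not on differences in level between donors. The spread used for each gene was moderated by edgeR with that of all genes tested, so it is not that of the 3 donors alone. CPM give no level between genes, as no lengths were used.

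The genes, the lists and the tests were chosen with earlier results of these data known. Named genes were the 7 measured, at most 4 called genes per list and comparison with the largest fold change, the 3 most alike genes per gene and called neighbours within 100 kb, a rule added after the values were seen. A gene that these rules take is not reported here. CXCR4, PECAM1, KDR, TNFRSF1A, RELA, NFKB1 and NFKBIA were named after their values were seen. Alternatives were DESeq2 1.42.0, relative log expression scaling, no filter, filterByExpr, all libraries in 1 fit, the adjusted p alone, no donor block, each donor left out, and the other control set. Both sets as control was added after seeing the data.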

Additional observations from a re-analysis of the deposited data

Results flagged for a closer look

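The responses to 2 and 80 dyne/cm2 differed by a test of the difference for 2 of the 7 genes, as they did for 37.1% of all 11568 genes tested. For SELP the difference was -3.65 on the log2 scale, and it stayed past the threshold in 7 of 7 alternatives. For ICAM1 it was -1.26, with a call in 4 of 7 alternatives.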

How the results depend on the processing

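At 2 dyne/cm2, where 2 of the 7 genes were called, the count was 1 without the replicate block, 1 against set 2 and 1 against both sets, and 0 to 3 with each donor left out. At 80 dyne/cm2 it went from 0 to 1 with the adjusted p alone (CXCL8) and 0 to 1 with each donor left out. Between the sets it went from 0 to 1 (CCL2) with DESeq2, to 1 with no filter and 0 to 1 with each donor left out. For the difference of the responses it went from 2 to 1 without the replicate block and 1 to 4 with each donor left out. Left-out fits keep 2 donors per group.

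Signs changed for genes that were not called. Against set 2, the log2 fold changes at 2 dyne/cm2 were 0.44 for VCAM1, 0.13 for CCL2 and 0.36 for CXCL8, and against both sets 0.079 for VCAM1 and 0.10 for CXCL8. At 80 dyne/cm2, SELP had -0.30 and CCL2 -1.0 against set 1, and CCL2 -0.48 against both sets. Without the replicate block, CXCL2 had -0.11 between the sets, and the differences of the responses were 0.023 for VCAM1, -0.21 for CXCL2 and 0.053 for ACKR3. With each donor left out, the ranges were -0.62 to 0.28 for CXCL8 and -0.63 to 0.013 for ACKR3 at 2 dyne/cm2, -0.46 to 0.21 for VCAM1, -0.030 to 0.45 for ICAM1 and -0.36 to 0.023 for ACKR3 at 80 dyne/cm2, -0.34 to 0.51 for CXCL2 and -0.26 to 0.050 for ICAM1 between the sets, and -0.28 to 0.0018 for VCAM1, -0.30 to 0.98 for CXCL2 and -0.66 to 0.39 for ACKR3 in the difference of the responses. The causes were not tested.

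Counts over all genes moved by more than 1.5 times in these cases. At 2 dyne/cm2, 1078 became 635 without the replicate block and 2895 with the adjusted p alone. At 80 dyne/cm2, 246 became 0 without the block, 136 with all libraries in 1 fit, 24 against set 1, 84 against both sets, 940 with the adjusted p alone, and 132 and 136 without donors 2 and 3. Between the sets, 1 became 66 with DESeq2, 46 with no filter, 0 without the block and in the fit of all libraries, 2 with the adjusted p alone, and 0 to 62 with a donor left out. For the difference, 4294 became 1746 without the block, 2403 without donor 1 and 1949 without donor 3. Scaling by relative log expression moved the median of all genes by 0.00414, -0.000726, -0.00247 and -0.00592 in the 4 comparisons, and no scaling changed the sign of any of the 7 genes.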
